A study of Mus musculus with 12 samples.

Results

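Additivity of the TLR7 agonist DSP-0509 with an anti-PD-1 antibody was examined gene by gene in CT26 tumors, where each agent was given alone and both were given together. The antibody blocks PD-1, an inhibitory receptor of activated T cells. CT26 is a colon carcinoma line of BALB/c origin that was implanted subcutaneously in BALB/c mice, which were assigned at a tumor volume of 130 to 170 mm3 per the labels. The study's text gives a smaller volume at dosing. The 4 groups of 3 mice received vehicle, DSP-0509 at 5 mg/kg i.v., anti-PD-1 antibody at 200 µg/mouse, or the combination of these doses, and whole tumors were taken 4 days after dosing. No isotype control antibody is named for the vehicle or DSP-0509 groups, and 1 dose of each agent at 1 time was measured. RNA was counted on the nCounter system, in which a barcoded probe for each gene is counted without amplification, and the values are normalized counts. Of 750 endogenous genes on the panel, 646 reached 20 normalized counts in at least 3 tumors and were tested, and 104 did not.

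TLR7 is an endosomal receptor for single-stranded RNA that signals through MyD88 to produce type I interferon and inflammatory cytokines. Blockade of PD-1 releases T cells that recognize tumor antigen, and activated T cells secrete interferon-gamma. Interferon-gamma acts through JAK kinases and IRF1 on genes of antigen presentation, on the CXCR3 ligands and on PD-L1. Both routes reach interferon-responsive genes, and the comparison asks whether the changes of the single agents add up in tumors given both.

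The departure from additivity was the combination mean minus the DSP-0509 mean minus the antibody mean plus the vehicle mean, on log2(normalized count + 1). A departure of 0 means that the fold changes of the single agents multiply to the fold change of the combination. A negative departure is a less than additive estimate and a positive departure a more than additive one. The sum of the single agents multiplied in this way is called the additive expectation.

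No gene departed from additivity in limma's moderated test with Benjamini-Hochberg adjustment over the 646 genes (0 less than additive, 0% of those tested, and 0 more than additive, 0%), and the smallest adjusted p was 1.00. At an unadjusted p under 0.05 there were 9 genes, 7 of them less than additive (1.08% of those tested) and 2 more than additive (0.31%), where 5% of the genes tested is 32.3. The adjusted p of each of the 9 was 1.00 in limma, and their 95% intervals are given without adjustment. A count of 0 was also obtained in the fit without moderation, in which 10 genes had an unadjusted p under 0.05. Estimates were spread evenly about additivity, with 325 genes below 0 (50.3%), 321 above 0 and a median of 0.00 (quartiles -0.19 and 0.17). The median gene was 0.20 higher than vehicle under DSP-0509, 0.18 higher under the antibody and 0.34 higher under the combination, against a median sum of 0.36.

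The precision of these estimates sets what could be seen. The median standard error of a departure was 0.36 on the log2 scale, and the 95% interval reached 0.80 to either side of the estimate in the median gene (quartiles 0.55 and 1.11). For 302 genes (46.7%) the interval lay within 1 log2 unit of additivity on both sides. For the other genes a departure of that size was compatible with the data, so that the count of 0 does not show additivity for them. The p-values measure the spread between 3 tumors a group from separate mice.

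**Figure D1:**
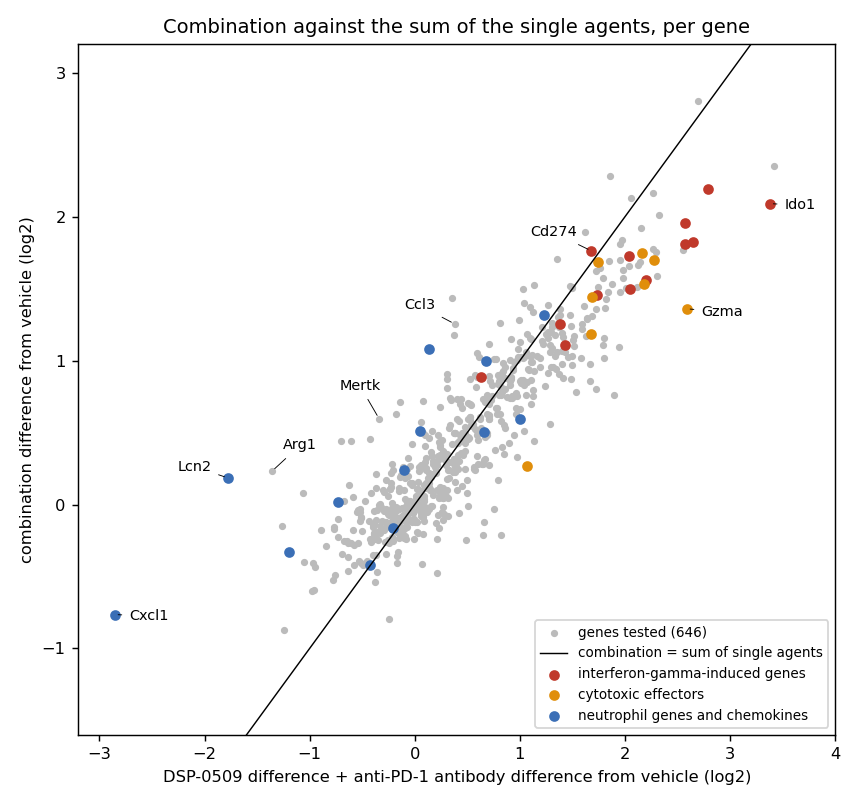
Each of the 646 genes is a point, with the sum of both single-agent differences from vehicle on the x axis and the combination difference on the y axis, both in log2 units. The line marks additivity. Interferon-gamma-induced genes and cytotoxic effectors lie mostly under the line at high sums, Cxcl1 and Lcn2 lie above it at negative sums, and no gene passed the test. The vehicle and single-agent tumors enter the sum and, with the opposite sign, the departure. Spread between these tumors alone therefore tends to place high sums under the line and negative sums above it. Its share in this pattern was not tested.

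The tumors numbered 1 stood apart from the others within each of the 4 groups. On the first principal component of the deviations from the group means, which held 52.1% of the within-group variation, these 4 tumors scored 6.31 to 11.95 and the other 8 all scored below 0. Genes with the highest loadings were the neutrophil chemokines Cxcl1, Cxcl2 and Cxcl3 and the neutrophil genes Lcn2 and S100a8, and Siglec1, Ccr2 and Ncr1 were among the lowest. No source says what the number stands for. Depth was 750416 to 1155698 total counts per tumor, and the 20 housekeeping genes had departures from -0.32 (Tubb5) to 0.29 (Sap130) with a median of -0.04. Of the markers checked, the leukocyte marker Ptprc, the T cell markers Cd3d, Cd3e, Cd3g and Cd6 and the macrophage marker Cd68 passed the filter, the B cell markers Ms4a1 and Cd79a and the NK cell marker Klrb1c did not, and the epithelial genes Epcam and Cdh1 passed at group means of 34.1 to 71.5.

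The gene with the lowest departure was Ido1, the enzyme that opens tryptophan breakdown to kynurenine and is induced by interferon-gamma. Ido1 read 24.9, 39.2 and 23.6 normalized counts in the vehicle tumors, 116, 82.9 and 142 under DSP-0509, 69.5, 77.3 and 94.4 under the antibody, and 86.6, 147 and 152 under the combination. Every treated tumor lay above every vehicle tumor, and the combination tumors overlapped both single-agent groups. The log2 difference from vehicle was 1.93 under DSP-0509, 1.45 under the antibody and 2.09 under the combination. Multiplying the single-agent changes gave an expected 306, and the combination mean was 129 ± 36.5 (SD, n = 3), with all 3 tumors below the expectation. The departure was -1.29 (95% interval -2.18 to -0.39, SE 0.40), and it was -0.998 (-2.13 to 0.13) without the tumors numbered 1.

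Psmb9 is an interferon-induced catalytic subunit of the immunoproteasome, which cuts peptides for MHC class I. Vehicle tumors read 942, 1407 and 1287 normalized counts, DSP-0509 tumors 2260, 2133 and 2949, antibody tumors 1680, 2160 and 2328 and combination tumors 2154, 2580 and 3059. The combination tumors stayed under the multiplied expectation of 4129 and within or just above the range of DSP-0509 alone. The departure was -0.68 (-1.35 to -0.01) and -0.57 (-1.23 to 0.08) without the tumors numbered 1.

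Further genes on the less than additive side at an unadjusted p under 0.05 were at low levels or near vehicle in the combination. Gzmm, a granule serine protease of NK and T cells, read 11.4, 19.6 and 9.09 in vehicle tumors, 17.9, 15.8 and 14.9 under DSP-0509, 23.5, 21.8 and 20.6 under the antibody and 12.7, 15.8 and 18.7 under the combination. The antibody tumors lay above all others, and the combination overlapped vehicle and DSP-0509. Only the antibody tumors reached 20 normalized counts, so Gzmm passed the filter through the group whose high values lower the departure. The departure of Gzmm was -0.79 (-1.55 to -0.04) and became -0.47 (-1.57 to 0.64) without the tumors numbered 1. Cd1d2, which belongs to the CD1d family of lipid-presenting molecules, was also highest under the antibody, with 20.3, 31.7 and 28.5 under the antibody, 15.8, 17.7 and 23.3 under the combination, which overlap, and a departure of -0.62 (-1.20 to -0.04). Beside its antibody tumors only the combination tumor of 23.3 reached 20 normalized counts. Whether the probe of Cd1d2 separates it from the closely related Cd1d1 is not given in the sources used here. Cd3eap, a subunit associated with RNA polymerase I, had a departure of -0.78 (-1.50 to -0.05), with 96.1, 133 and 168 under DSP-0509 against 85.5, 72.7 and 101 under the combination. Nefl, the neurofilament light chain, read 51.7, 40.1 and 41.1 under the combination, at or below the lowest vehicle tumor (51.8), and 64.8, 80.1 and 86.7 under DSP-0509. Its departure was -0.69 (-1.32 to -0.05).

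On the more than additive side, Mertk, a receptor tyrosine kinase by which macrophages clear apoptotic cells, had a slightly lower mean than vehicle under each agent and a higher one under both. Mertk read 180, 146 and 148 normalized counts in vehicle tumors, 121, 183 and 120 under DSP-0509, 169, 123 and 135 under the antibody and 293, 187 and 246 under the combination. Each combination tumor lay above each of the other 9 tumors, while the tumors of each single agent overlapped those of vehicle. The log2 differences from vehicle were -0.18, -0.16 and 0.60, and the departure was 0.94 (0.24 to 1.63, SE 0.31), or 0.73 (-0.08 to 1.53) without the tumors numbered 1.

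Itga2b, the integrin alpha chain of platelets and megakaryocytes, was also highest in the combination, at low levels, while the antibody mean lay above vehicle and the DSP-0509 mean below it. It read 17.7, 20.6 and 23.6 in vehicle tumors, 12.3, 19.6 and 18.6 under DSP-0509, 21.4, 22.8 and 24.6 under the antibody and 31.7, 30.8 and 41.1 under the combination. The combination tumors again exceeded the other 9, whose highest value was 24.6. The departure was 0.86 (0.25 to 1.47), and it was 0.77 (0.18 to 1.35) without the tumors numbered 1. The negative control probes averaged 6.25 to 12.5 per tumor, close to the lower of these values. The highest probe of each tumor read 12 to 21, which overlaps them. Per the values, the probes are whole counts without the factor that scales the genes of each tumor.

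**Figure D2:**
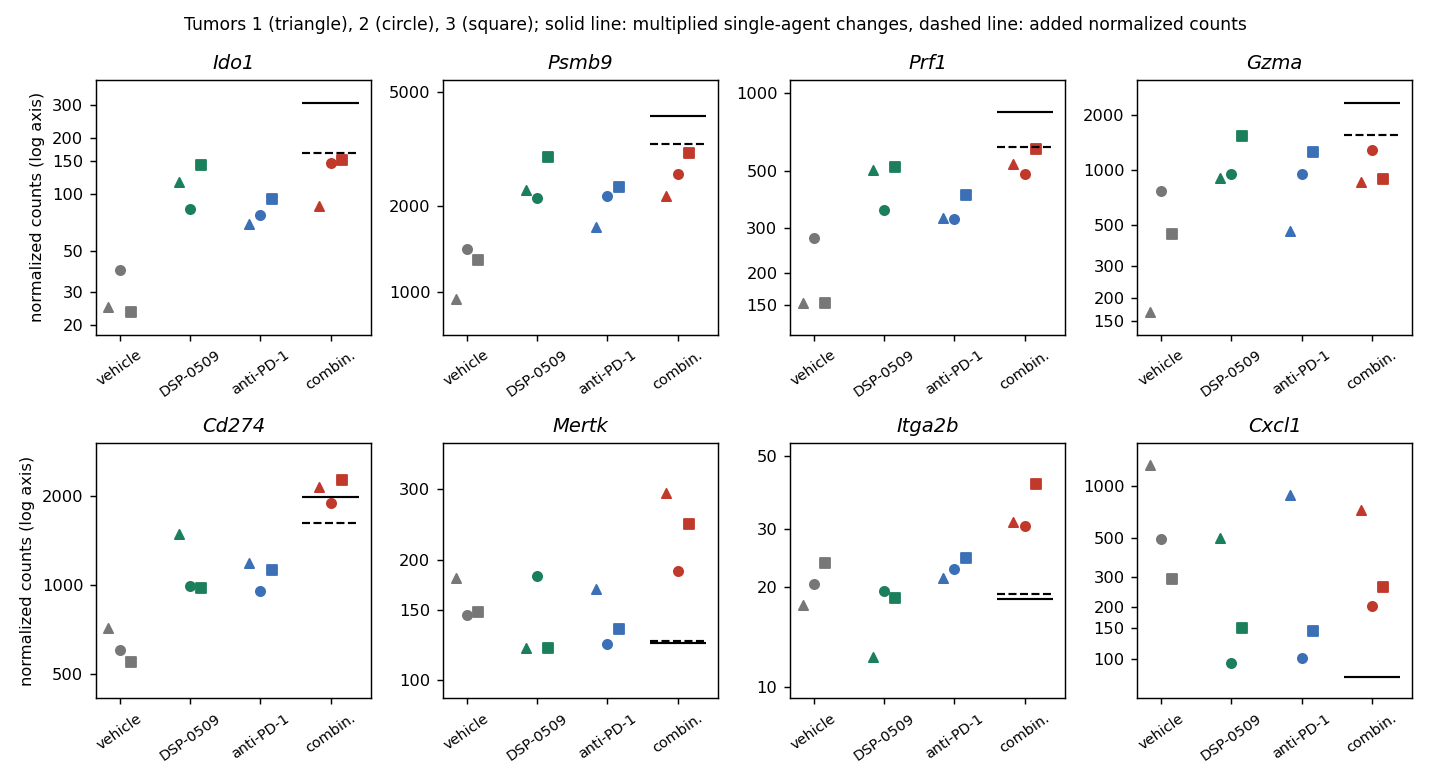
Normalized counts on a log axis in each of the 12 tumors for 8 genes, by group, with the tumor number as the symbol. The solid line over the combination is the value expected when the single-agent changes multiply, and the dashed line the value when their normalized counts add (none for Cxcl1, where that sum is below 0). All combination tumors lie under both lines for Ido1, Psmb9, Prf1 and Gzma and above both for Mertk and Itga2b, whereas Cd274 tumors lie about the solid line.

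Beyond the 9 genes at an unadjusted p under 0.05, the extremes by moderated t had intervals that included 0. Below additivity they were Tirap (-0.39), the TLR adaptor next to MyD88, the class I gene H2-Q2 (-0.72), and Klrg1 (-1.13), an inhibitory receptor of effector T cells and NK cells. Above additivity they were the chemokine receptor Cxcr4 (0.70), the mitochondrial arginase Arg2 (1.14), the lipid carrier Apoe (0.88), the activating Fc receptor Fcgr3 (0.76), the CD27 ligand Cd70 (0.71), the TRAF-binding adaptor Tank (0.35), the eosinophil chemokine Ccl24 (1.14) and the lymphatic growth factor Vegfc (0.81). In Cxcr4 the DSP-0509 tumors read 245, 201 and 147 normalized counts, against 234 to 371 in vehicle tumors and 290 to 315 under the combination. The combination tumors lay within the vehicle range, so this estimate rests on a lower mean under DSP-0509 alone rather than on a higher one under both agents. Arg2 read 44.6 to 112 under DSP-0509, 91.6 to 173 in vehicle tumors and 116 to 196 under the combination, with a log2 difference from vehicle of -0.62 under DSP-0509 and 0.44 under the combination.

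**Figure D3:**
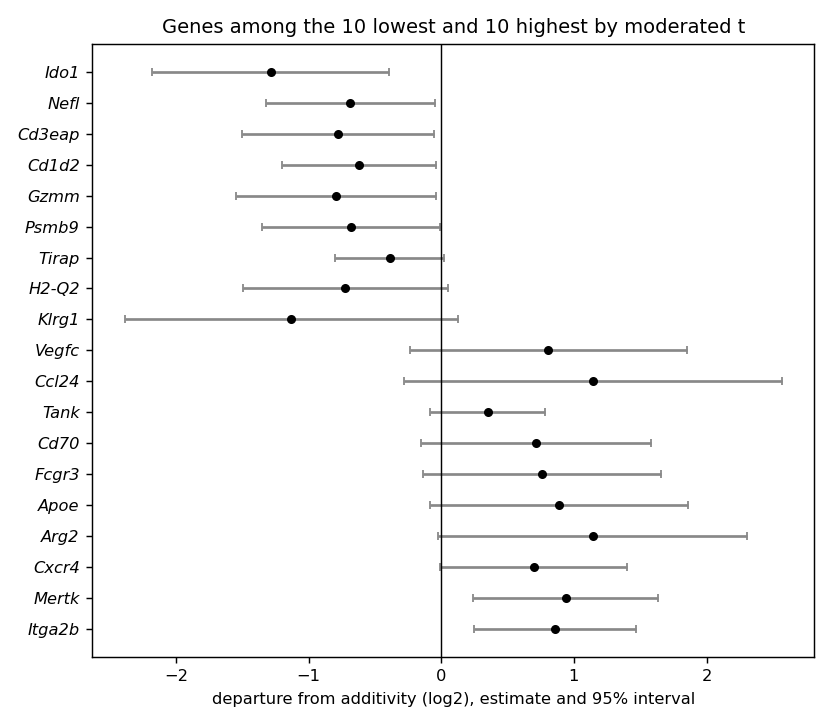
Departures from additivity in log2 units (x axis) with 95% intervals for 19 genes from the 10 lowest and the 10 highest by moderated t. The intervals of 6 of these lie wholly below 0 and those of 2 genes, Mertk and Itga2b, wholly above it, before adjustment for the number of genes.

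Genes that interferon-gamma induces had the lowest median of the 26 gene lists. The median departure of 13 genes was -0.55, beside 0.00 over all genes tested, and 11 of the 13 estimates were below 0 while none was called. The median difference from vehicle was 1.15 under DSP-0509, 0.90 under the antibody and 1.73 under the combination, so the combination was above each agent alone and short of the sum. In this list and the later ones, all members were read in the same tumors and can rise and fall together. A count of members below or above 0 is therefore not a count of separate results. No list was tested as a whole. The CXCR3 ligands Cxcl11, Cxcl9 and Cxcl10, which draw activated T cells, had departures of -0.83 (-1.84 to 0.18), -0.77 (-1.87 to 0.34) and -0.64 (-1.64 to 0.36). For Cxcl10 the vehicle tumors read 528, 935 and 805 normalized counts, the DSP-0509 tumors 1688, 1728 and 2323, the antibody tumors 801, 1661 and 1708 and the combination tumors 1721, 2421 and 2458. The combination lay above all antibody tumors, with 1 tumor within the DSP-0509 range and the highest 2 above it. The transcription factor Irf1 was at -0.13 (-0.60 to 0.35) and the class II transactivator Ciita at -0.31 (-1.99 to 1.36).

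Both exceptions of that list were negative regulators. Cd274 encodes PD-L1, the ligand of PD-1, and read 714, 602 and 550 normalized counts in vehicle tumors, 1488, 992 and 976 under DSP-0509, 1191, 954 and 1128 under the antibody and 2153, 1897 and 2271 under the combination. The combination tumors lay above every tumor of the other groups. The differences from vehicle of 0.87 and 0.81 came close to the combination's 1.76, with a departure of 0.08 (-0.51 to 0.67) and a combination mean of 2107 beside an expected 1983. Its sign turned to as low as -0.02 when single tumors were left out. Socs1, which inhibits JAK kinases, was at 0.26 (-0.49 to 1.01).

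The list had 11 of 13 estimates below 0 when tumors were rescaled to the housekeeping genes, quantile normalized or centred on the median gene, and its median was -0.35 with 10 of 13 below 0 without the tumors numbered 1. With 1 tumor left out at a time it ran from -0.78 to -0.37.

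Type I interferon-stimulated genes, which TLR7 agonists are known to induce through plasmacytoid dendritic cells, were centred on additivity. Of 25 members tested, 12 were below 0 and 13 above, with a median of 0.00 and medians of 0.38, 0.42 and 0.89 for DSP-0509, the antibody and the combination. At the ends were Zbp1 (-0.46), Ifi44l (-0.44) and Isg15 (-0.30) on one side and Ifit1 (0.64), Rsad2 (0.42) and Stat2 (0.26) on the other. Ifit1, which binds viral RNA, read 242, 379 and 357 normalized counts in vehicle tumors, 617, 216 and 136 under DSP-0509, 369, 419 and 449 under the antibody and 542, 479 and 562 under the combination, and DSP-0509 tumor 1 was the highest of all 12. Without the tumors numbered 1 the list's median was 0.22, with 5 of 25 below 0, and with 1 tumor left out it ran from -0.14 (antibody tumor 1) to 0.18 (DSP-0509 tumor 1). Mx1 and Epsti1 did not pass the filter.

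Promoters of 3 of these genes are shown because Cxcl10 and Ifit1 both hold an interferon-stimulated response element and had estimates on opposite sides of additivity, and Irf1 holds a gamma-activated site. The windows, from RefSeq (GRCm38.p6), run 5′ to 3′ on the gene's strand from 250 bases before to 50 after the start site, with matches in capitals. They are Cxcl10 on the minus strand at chr5:92348840-92349139, Irf1 on the plus strand at chr11:53769764-53770063 and Ifit1 on the plus strand at chr19:34640639-34640938.
Cxcl10: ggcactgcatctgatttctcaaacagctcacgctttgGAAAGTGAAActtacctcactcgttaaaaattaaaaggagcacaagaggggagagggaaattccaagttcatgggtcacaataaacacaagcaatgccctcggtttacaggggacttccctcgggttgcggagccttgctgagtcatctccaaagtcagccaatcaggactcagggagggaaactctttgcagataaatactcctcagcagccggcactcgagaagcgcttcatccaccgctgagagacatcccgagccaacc
Irf1: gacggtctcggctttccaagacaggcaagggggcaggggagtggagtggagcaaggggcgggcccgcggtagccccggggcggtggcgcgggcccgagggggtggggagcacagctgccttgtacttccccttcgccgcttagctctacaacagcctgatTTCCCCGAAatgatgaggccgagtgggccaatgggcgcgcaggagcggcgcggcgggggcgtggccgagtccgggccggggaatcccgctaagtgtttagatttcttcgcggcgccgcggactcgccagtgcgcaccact
Ifit1: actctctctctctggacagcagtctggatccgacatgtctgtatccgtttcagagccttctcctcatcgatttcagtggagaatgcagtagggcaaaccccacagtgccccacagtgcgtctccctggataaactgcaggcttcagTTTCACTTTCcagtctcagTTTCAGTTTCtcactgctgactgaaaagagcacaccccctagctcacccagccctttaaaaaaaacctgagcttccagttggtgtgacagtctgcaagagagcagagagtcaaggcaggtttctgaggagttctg
The response element was searched as GAAA, any 2 bases and GAAA, and the gamma-activated site as TTCNNNGAA, on both strands. The match of Cxcl10 lies 213 to 204 bases before the start site, those of Ifit1, read on the other strand, 104 to 95 and 85 to 76 bases before it, and the site of Irf1 90 to 82 bases before it. The table gives a further Irf1 window, without a match. The response element was found in 3.44% and the site in 8.30% of 32851 windows of 300 bases in the table. Among genes tested, 472 had a window, and 42 of these (8.90%) held the response element and 67 (14.2%) the site. For the interferon-gamma-induced genes 8 of 13 had a window, 5 with the response element and 3 with the site, and for the type I list 20 of 25 had one, 10 with the response element and 4 with the site. These matches are letters in a window and not measured binding.

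MHC class I presentation had 13 of 13 tested members below additivity, none called, with a median of -0.33. These members were read in the same tumors, so their shared direction is not 13 separate results. Medians against vehicle were 0.76 under DSP-0509, 0.64 under the antibody and 1.02 under the combination. After H2-Q2 and Psmb9 came Psmb10 (-0.64), a further immunoproteasome subunit, and at the other end were the classical class I heavy chain H2-D1 (-0.07, -0.46 to 0.32) and H2-Q10 (-0.02). Tap1, a subunit of the pump that carries peptides into the endoplasmic reticulum, read 1470, 1989 and 1726 normalized counts in vehicle tumors, 2943, 2837 and 2645 under DSP-0509, 2371, 2709 and 2986 under the antibody and 3107, 3564 and 4150 under the combination. All combination tumors were above all others, and still the departure was -0.29 (-0.79 to 0.21). The number below 0 was 12, 12 and 13 of 13 after rescaling to housekeeping genes, quantile normalization and centring, and 11 of 13 without the tumors numbered 1 (median -0.22). Leaving out vehicle tumor 1 alone brought the median to -0.18, and leaving out combination tumor 1 to -0.21. Heavy chain genes are similar in sequence, and how well their probes separate them is not given in the sources used here. H2-Q1 did not pass the filter.

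MHC class II genes had no settled direction. The median of 10 was 0.05, with 3 below 0, and H2-Ab1, the beta chain of I-A, was at 0.10 (-1.10 to 1.30). Its combination tumors read 3126, 3513 and 8012 normalized counts against 1804 to 2762 in vehicle tumors, 2094 to 3436 under DSP-0509 and 2202 to 4152 under the antibody. The third tumor alone stood above the single-agent groups, and without it the departure of H2-Ab1 was -0.33 and the list's median -0.37. The list's median was -0.10 under quantile normalization, -0.08 without the tumors numbered 1 and -0.63 with array weights, so its direction changed with the processing.

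All 8 cytotoxic effectors had estimates below additivity, none called, with a median of -0.53 and medians against vehicle of 1.12, 0.94 and 1.49. Here too the shared direction is not 8 separate results, because the genes were read in the same tumors. Gzmm among them passed the filter only through its antibody tumors. Gzma, the granule protease granzyme A, had the lowest at -1.23 (-2.87 to 0.42). It read 167, 770 and 448 normalized counts in vehicle tumors, 901, 952 and 1539 under DSP-0509, 466, 944 and 1258 under the antibody and 861, 1285 and 889 under the combination. The combination tumors lay within the span of the single-agent tumors, and vehicle tumor 1 was far below the other vehicle tumors. Prf1, the pore-forming protein perforin, was at -0.65 (-1.42 to 0.11), Gzmb at -0.58 (-1.57 to 0.42), the death ligand Fasl at -0.42 (-1.18 to 0.34) and Ifng itself at -0.25 (-1.43 to 0.94).

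Gzmb, granzyme B, read 108, 255 and 115 in vehicle tumors, 453, 271 and 420 under DSP-0509, 252, 260 and 347 under the antibody and 478, 518 and 447 under the combination. Only DSP-0509 tumor 1 among the single-agent tumors reached the combination's range. The list had 8, 7 and 8 of 8 below 0 under the 3 rescalings, and 7 of 8 with a median of -0.25 without the tumors numbered 1.

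NK cell receptors and adaptors had 11 of 13 tested members below 0 (median -0.37), with Ncr1, the activating receptor NKp46, lowest at -0.69 (-2.52 to 1.13). The T cell receptor complex and surface list had 12 of 16 below 0 (median -0.22), among them Cd8b1, the beta chain of the CD8 co-receptor, at -0.38 (-1.45 to 0.70), while Cd3e (0.01) and Cd2 (0.29) were above. Of the 7 tested inhibitory receptors 5 were below 0, with Pdcd1, the gene of PD-1, at -0.49 (-1.70 to 0.71) and the MHC class II receptor Lag3 at -0.35 (-1.33 to 0.63). Pdcd1 read 56.1, 150 and 137 normalized counts in vehicle tumors, 225, 244 and 333 under DSP-0509, 159, 222 and 239 under the antibody and 316, 272 and 551 under the combination. Vehicle tumor 1 was again the lowest, and DSP-0509 tumor 3 alone among the single-agent tumors reached the combination's range. Leaving out vehicle tumor 1 brought the NK median to -0.04 and the T cell median to 0.03, the cytotoxic median to -0.26, the interferon-gamma median to -0.37, Gzma to -0.62, Ncr1 to -0.06 and Pdcd1 to -0.05. The cytotoxic median was -0.90 without vehicle tumor 2. The median of the inhibitory receptors was -0.16, and it was 0.03 without antibody tumor 3.

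Whole tumors were measured, so more cells of a type and more RNA per cell cannot be told apart. Group means of Ptprc were 672 for vehicle, 1013 under DSP-0509, 945 under the antibody and 1349 under the combination. The departures of the markers were -0.07 (-1.19 to 1.05) for Ptprc, -0.23 for Cd3d, 0.01 for Cd3e, -0.22 for Cd3g, 0.02 for Cd6, -0.35 for Cd8a, -0.38 for Cd8b1 and -0.69 for Ncr1. The part of lymphocyte content in the departures of effector genes was not tested.

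Receptors and cytokines of the common gamma chain family, which sustain T cells and NK cells, had 7 of 9 below 0 (median -0.20), led by the IL-15 receptor chains Il15ra (-0.78) and Il2rb (-0.72). Without DSP-0509 tumor 3 the median was -0.01 and Il15ra at -0.50, and without vehicle tumor 1 Il2rb was at -0.28. Epithelial and tumor surface genes had 7 of 8 below 0 (median -0.21), with Cdh1 at -0.74 (-2.06 to 0.58) and Epcam at -0.69 (-2.85 to 1.47), and the median ran from -0.37 without DSP-0509 tumor 1 to -0.09 without DSP-0509 tumor 3.

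The pathway of the drug's own receptor was centred on additivity, but its median gene changed little under any treatment. Medians of this list against vehicle were 0.04 under DSP-0509, 0.01 under the antibody and 0.01 under the combination. With so little change, departures near 0 do not show how the agents combine. Tlr7 read 70.7, 147 and 149 normalized counts in vehicle tumors, 123, 178 and 165 under DSP-0509, 81.3, 167 and 179 under the antibody and 137, 214 and 189 under the combination. The 4 groups overlapped, and the tumor numbered 1 was the lowest of its group in each. The departure of Tlr7 was -0.01 (-1.15 to 1.13), and 11 of 19 genes of TLR7 signalling were below 0, with a median of -0.01. The ends were the adaptor Myd88 (-0.35) and the NF-kappaB inhibitors Nfkbia (0.50) and Tnfaip3 (0.64). For 12 of the 19 the interval lay within 1 log2 unit of additivity. Fibroblast and matrix genes had 14 of 18 such intervals and a median of 0.10, while those of the collagens Col1a1 (0.27, -1.34 to 1.88) and Col3a1 (-0.10, -2.18 to 1.97) were wide. Medians of the fibroblast list against vehicle were also small, at -0.09 under DSP-0509, -0.02 under the antibody and -0.03 under the combination. The median departure of that list was 0.01 without antibody tumor 1 and -0.01 with array weights.

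The highest medians were those of inflammatory cytokines and mediators (0.35, 11 of 14 above 0) and of neutrophil genes and chemokines (0.34, 11 of 13 above 0), none called. Their medians against vehicle were -0.18 and -0.08 under DSP-0509, 0.00 and 0.13 under the antibody and 0.18 and 0.24 under the combination. Cxcl1, a chemokine that recruits neutrophils, had the highest departure of all genes at 2.09 with an interval of -0.80 to 4.99. It read 1335, 493 and 290 normalized counts in vehicle tumors, 504, 95 and 151 under DSP-0509, 885, 101 and 145 under the antibody and 729, 203 and 261 under the combination. The tumor numbered 1 was the highest in each group, and the groups overlapped. Without these tumors the departure was 2.57 (1.35 to 3.80), from vehicle tumors of 493 and 290, single-agent tumors of 95 to 151 and combination tumors of 203 and 261. The adjusted p in limma was then 0.454. Leaving these tumors out was chosen after seeing the data, and Cxcl1 was among the genes by which they stood apart. That interval is therefore not a separate test of Cxcl1.

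Lcn2, an iron-scavenging protein of neutrophil granules, followed at 1.96 (-1.02 to 4.95). Its normalized counts were 1808, 1413 and 810 in vehicle tumors, 2724, 313 and 480 under DSP-0509, 2497, 196 and 525 under the antibody and 2421, 981 and 1281 under the combination. Among tumors numbered 2 and 3 those of the single agents were lower than those of vehicle and the combination. Without the tumors numbered 1 the departure was 3.26 (1.47 to 5.05), with an adjusted p of 0.513 in limma. The limit given for Cxcl1 holds for Lcn2 as well. Arg1, the arginase of myeloid cells that depletes arginine, was at 1.59 (-0.68 to 3.86), the interleukin-1 receptor antagonist Il1rn at 1.05 (-0.70 to 2.79), the gelatinase Mmp9 at 0.95 (-0.82 to 2.72) and the inducible nitric oxide synthase Nos2 at 0.81 (-0.54 to 2.16). Nos2 read 80.04, 57.0 and 48.2 in vehicle tumors and 189, 114 and 122 under the combination, with 122, 44.7 and 55.7 under DSP-0509 and 122, 46.6 and 61.0 under the antibody. Tumor 1 was again the highest of its group in each. For Mmp9 a combination tumor numbered 1 of 451 stood apart from 159 and 81.2.

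The neutrophil markers Csf3r (0.32), S100a8 (0.04), Cxcr2 (0.45) and Fpr2 (0.09) had departures nearer to 0 than Cxcl1 and Lcn2, and Mpo, Elane, Camp and Ltf did not pass the filter. The neutrophil median was 0.03 without antibody tumor 2, 0.72 without antibody tumor 1 and 0.59 without the tumors numbered 1. The inflammatory median was 0.17 without antibody tumor 2 and 0.37 without the tumors numbered 1, then with 6 of 14 below 0. Without antibody tumor 2 the departure of Lcn2 was 1.12 and that of Arg1 0.72.

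Macrophage and monocyte genes had 13 of 19 above 0 (median 0.13), with Mertk, Arg1 and Fcgr3 at the upper end and Siglec1 (-0.47), a sialic acid receptor of macrophages, at the lower. The markers Cd68 (0.22), Cd163 (-0.04), Cd84 (0.08), Emr1 (0.26) and Csf1r (0.26) all had intervals that included 0, and the list's median was -0.13 without antibody tumor 1 and -0.02 with array weights. T cell-attracting chemokines were divided, with the CXCR3 ligands low and the chemokines Ccl3 (0.88), Ccl4 (0.56) and Ccl5 (0.42) high. Ccl3 read 188, 179 and 171 normalized counts in vehicle tumors, 322, 110 and 207 under DSP-0509, 276, 122 and 295 under the antibody and 495, 306 and 521 under the combination. Of the single-agent tumors DSP-0509 tumor 1 alone exceeded the lowest combination tumor, and the departure was 0.88 (-0.44 to 2.19), or 0.47 without tumor 2 of DSP-0509 or of the antibody. Inhibitory ligands had 7 of 8 above 0 (median 0.11), with Pdcd1lg2, the gene of PD-L2, at 0.47 (-0.70 to 1.64), and the median was 0.02 without DSP-0509 tumor 3 and 0.22 without DSP-0509 tumor 1.

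**Figure D4:**
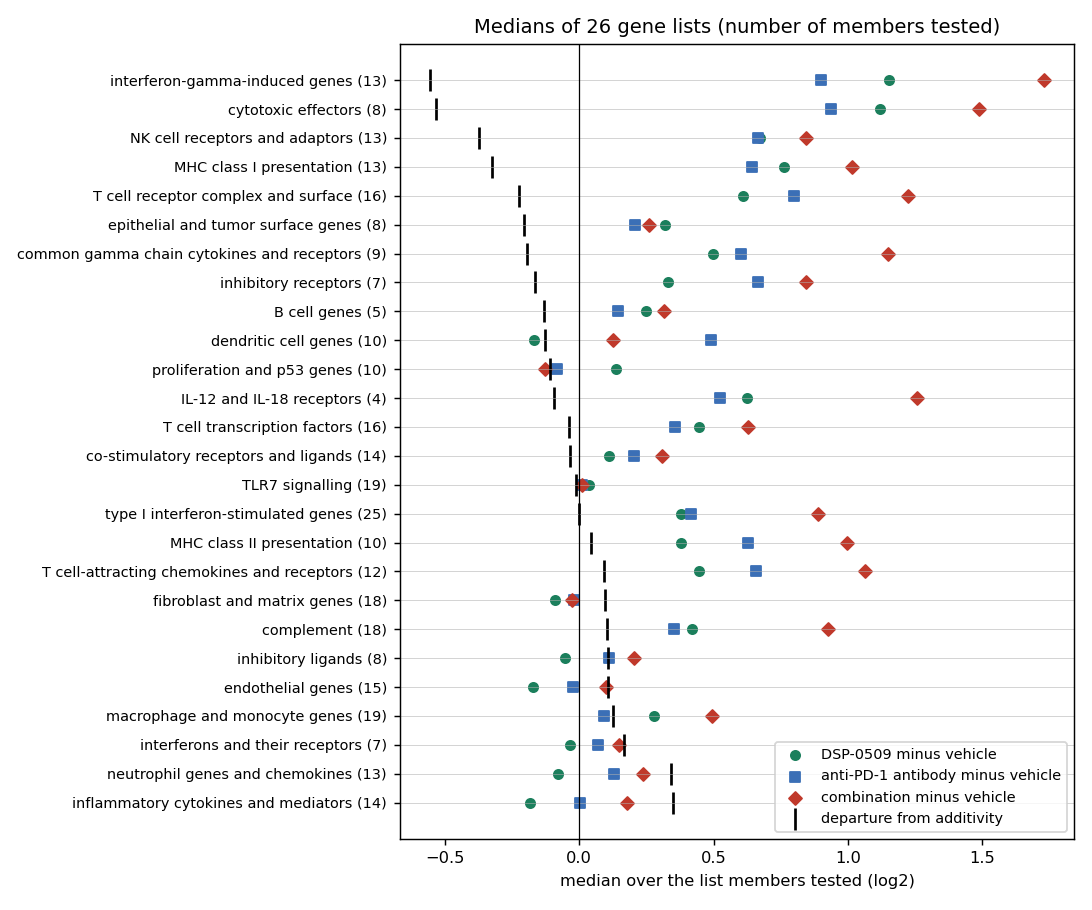
Medians over the tested members of 26 gene lists, ordered by departure from additivity (black bar), with the medians of DSP-0509, anti-PD-1 antibody and combination against vehicle, all in log2 units. The lists run from -0.55 for interferon-gamma-induced genes to 0.35 for inflammatory cytokines and mediators, and no member of any list was called.

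Additivity can also be read on the linear scale, where the differences in normalized counts of the single agents add. The combination mean was above that sum in 380 genes and below it in 266, against 321 and 325 on the log2 scale. No gene was called on the linear scale either, and 7 had an unadjusted p under 0.05, of which 3 were below the sum and 4 above. The estimates of 73 genes were below 0 on the log2 scale and above it on the linear scale, and those of 14 genes the reverse.

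This choice of scale divided the lists. Of the interferon-gamma-induced genes 7 of 13 were below the linear sum, beside 11 below the multiplied expectation, and the median log2 ratio of the combination mean to the linear sum was 0.00. T cell receptor complex and surface genes had 6 of 16 below the linear sum (median 0.11) and cytotoxic effectors 5 of 8 (median -0.09). MHC class I presentation had 12 of 13 below it (median -0.09). For Ido1 the linear sum was 165 and the mean of the combination 129, a log2 ratio of -0.36. For Pdcd1 the linear sum was 360, the multiplied expectation 510 and the combination mean 380, so that the estimate lay above one and below the other. Fasl did likewise, with 70.0, 97.7 and 74.2. Cd274 lay near its multiplied expectation and above the linear sum, with a log2 ratio of 0.38. In limma on the linear scale its unadjusted p was 0.041 and its adjusted p 0.995. Mertk, whose single-agent differences were small, was expected at 125 by the linear sum and 124 by multiplying, and its combination mean was 242.

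**Figure D5:**
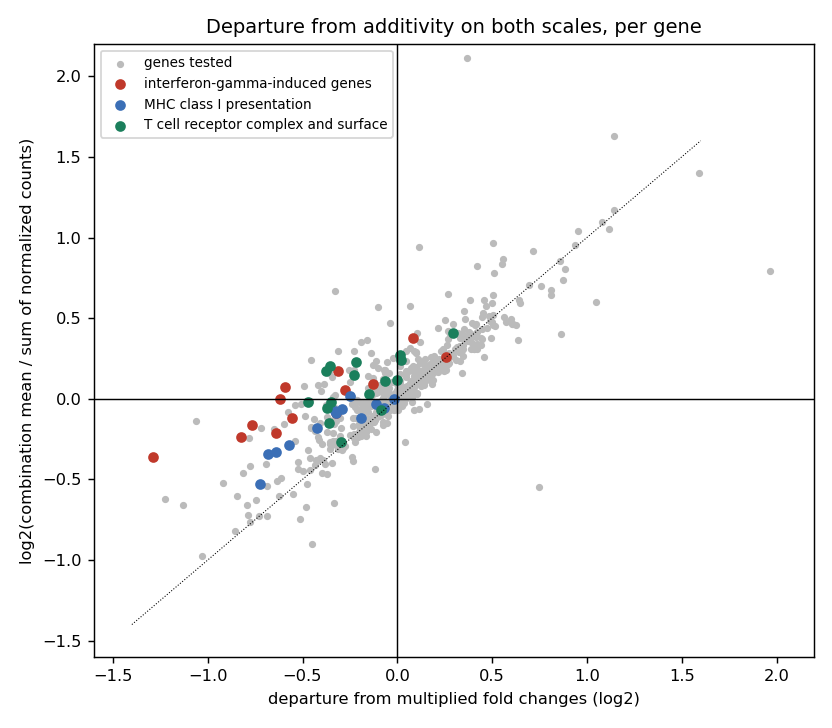
Departure from the multiplied expectation (x axis, log2) against the log2 ratio of the combination mean to the linear sum (y axis) for each gene whose linear sum is above 0. The dotted line marks equality of both measures. Several interferon-gamma-induced and T cell genes fall left of the vertical line and at or above the horizontal one.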

How the data were processed

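RNA of whole CT26 tumors was counted by the authors on the nCounter system with the mouse PanCancer Immune Profiling panel and normalized in nSolver 4.0. Per the values, what was deposited is a signal in which gene counts were scaled by 1 factor per tumor and the background was kept. How the factor was chosen is not given in the sources used here. Values were taken to log2(value + 1), and endogenous genes with 20 or more in at least 3 tumors were fitted with limma 3.58.1 in R 4.3.3 over 12 tumors with no covariate. P-values were adjusted over all 646 genes and called under 0.05. The fit was tested on simulated data with noise drawn separately for each gene and tumor. Variation shared by many genes, as in the tumors numbered 1, was not part of that simulation. The study's methods name a test of 2 groups, which does not give this contrast. The text names the 10 lowest and 10 highest genes by moderated t, Tlr7, Pdcd1, genes the study names for these data, as many as 3 members from each end of every list, and cell type markers. Ccl5, Cxcl2, Cxcl3, Tap1, the housekeeping genes and members under the filter were named after their values were seen. Genes, 26 lists and tests were chosen with earlier results of these data known. Symbols are the panel's, and 634 of the 646 matched RefSeq (GRCm38.p6) directly and 8 by an older name. Alternatives were other pseudocounts, filters, scalings, weights and scales, and each tumor left out. The 4 tumors numbered 1 were left out together as an alternative chosen after seeing the data. Some genes that the rule takes are not reported here.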

Additional observations from a re-analysis of the deposited data

How the results depend on the processing

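No gene was called in the 25 alternatives (13 of setting and 12 that left out 1 tumor), the lowest adjusted p being 0.244 without vehicle tumor 2 and 0.343 with array weights. The number of genes at an unadjusted p under 0.05, 9 in the report, was 15 with no filter, 5 with a trend and robust variances, 83 with array weights (40 less and 43 more than additive) and 38 without the tumors numbered 1 (16 and 22), an alternative chosen after seeing the data. With 1 tumor left out it ran from 4 (antibody tumor 2 or combination tumor 1) to 30 (DSP-0509 tumor 1), and it was 25 without antibody tumor 1, 18 without vehicle tumor 2 and 16 without combination tumor 3. After background subtraction 2 genes were less and 7 more than additive, and 4 of the 9 in the report were among them. Of those 9, all 9 stayed under 0.05 with no filter and with a replicate block. Only 4 did so without the tumors numbered 1. With 1 tumor left out, between 3 (antibody tumor 2) and 8 (combination tumor 3) of the 9 did so. The median over genes stayed within the spread between tumors, from -0.13 to 0.09. A fit with a replicate block gave a count of 30 (18 and 12) and called no gene (lowest adjusted p = 0.663). No source says that the number pairs tumors, and 13 of 18 same-numbered pairs had deviations that correlated over 0.1 (-0.23 to 0.69). Pairs numbered 1 ran from 0.37 to 0.69, those numbered 2 from -0.23 to 0.55 and those numbered 3 from -0.04 to 0.56. Pairs with unlike numbers had a median of -0.25, which is lowered because deviations cancel within a group. Of 56 genes followed, 43 had the same direction in every alternative that gave an estimate for them. Many of the 56 were picked as extremes of these same estimates, so a kept direction is not a separate result. On the linear scale the estimate was above 0 for Pdcd1 (0.0784), Fasl (0.0853), Ifng (0.105), Cd8b1 (0.170), Lag3 (0.132), Col3a1 (0.570), Irf1 (0.0913) and Tlr7 (0.0365). Tlr7 was at 0.0318 on housekeeping scaling and 0.0252 after background subtraction. With array weights the estimate was 0.149 for Gzmb, -0.662 for H2-Ab1 and 0.0614 for H2-D1. Without the tumors numbered 1 it was 0.00609 for Tlr7, -0.0220 for H2-Ab1, 0.0146 for Col3a1, 0.135 for H2-D1 and 9.62e-05 for Irf1. With 1 tumor left out estimates spanned both signs for Tlr7 (-0.370 to 0.342), Cd274 (-0.0220 to 0.282), Col1a1 (-0.313 to 0.770), Col3a1 (-0.956 to 0.508), H2-Ab1 (-0.326 to 0.353) and H2-D1 (-0.129 to 0.0320). The cause was not tested. The planned edgeR test on recovered counts was not run. Background limits Itga2b, Gzmm and Cd1d2, whose values lie near the negative control probes. The mean of these probes was 7.75 to 10.75 in vehicle tumors and 8.125 to 9.75 under DSP-0509. It was 11.375 to 12.375 under the antibody and 6.25 to 12.5 under the combination. The part of background in the departures of these genes was not tested.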
